A study of Homo sapiens with 14 samples.

Results

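PRRC2A, PRRC2B and PRRC2C are the 3 members of the PRRC2 family of large proline-rich coiled-coil proteins, and their RNA was followed across 14 libraries of 293FT cells. All called sites on the gene strand inside the 3 GENCODE 29 genes (GRCh38) were taken, which gave 25 distinct sites of the 22355 in the series and 37 of its 46372 calls. PRRC2B held 18 of these sites, PRRC2C held 7 and PRRC2A held 0. The family was selected on the number and edited fraction of C-to-U sites in hA3A-BE3 cells, so its C-to-U sites in those cells are described here without a test. No family site lay on the strand opposite its gene, and at all 20 exonic sites the called reference base was that of the transcript.

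PRRC2 proteins are mostly disordered, bind RNA and are found with translation initiation factors, among them eIF3 and eIF4G2. They are known for helping ribosomes pass upstream start codons and for joining stress granules, which are cytoplasmic assemblies of stalled initiation complexes. PRRC2A has also been described as a reader of N6-methyladenosine (m6A), a common mark of mRNA. PRRC2C has been described as needed for efficient formation of stress granules.

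293FT is a transformed human embryonic kidney line expressing SV40 large T antigen. The 3 hA3A-BE3 libraries came from cells given a cytosine base editor in which human APOBEC3A, a deaminase of cytosine in single-stranded DNA and in RNA, is joined to a Cas9 nickase. The 2 PE3 libraries (replicates 2 and 3) came from cells given a prime editor, a Cas9 nickase joined to a reverse transcriptase and used with a second nicking guide, and PE3 replicate 1 was not analysed here. Control groups of 3 libraries each, 9 in all, were non-transfected cells and cells that received EGFP or Cas9. The labels name hRNF2 in the title of every library, the non-transfected ones included, and describe sorting for the brightest 15% of cells 40 h after transfection without giving what was sorted in the non-transfected group. The lists of called sites hold no expression level, so the cell line could not be checked against marker genes, and the labels do not say that replicates were separate cultures.

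The series' lists rest on 3.26 to 10.6 Gb of mapped bases per library, a depth read from a constant ratio in the files. All C-to-U sites numbered 2499, 5113 and 6446 in hA3A-BE3 replicates 1, 2 and 3, against 42 to 53 in the 9 controls and 43 and 44 in the PE3 libraries. The lowest values found in the lists were 2 mutated reads, an edited fraction of 5.02% and a depth of 3.01 reads per Gb. The caller's own limits were not given. No listed site lies below these values, so a site missing from a list is not a level of 0.

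In PRRC2B, 5 C-to-U sites were listed in each of the 3 hA3A-BE3 libraries and nowhere else, and these are called recurrent. Their spliced transcript windows of 25 bases, from GENCODE 29, are given first because they share letters that the other family sites do not all have. The edited cytosine and the U before it are in capitals, and protein changes are numbered from the first residue of the longest coding transcript. The positions are single bases on the plus strand of GRCh38.
PRRC2B 5' UTR, chr9:131430141-131430141, exon 1: augacauuucaUCgcaauguccgau
PRRC2B I1563I, chr9:131478550-131478550, exon 17: cgaaggcuucaUCgaaguccugacc
PRRC2B I1840I, chr9:131484745-131484745, exon 23: ccagagggccaUCggucucucccca
PRRC2B S2153L, chr9:131492245-131492245, exon 29: gccccgugccaUCgccacagaccua
PRRC2B S2206L, chr9:131495801-131495801, exon 31: aggaggcccccUCggcugccuccca
All 5 had C at the third base before the edited cytosine and G just after it, and 4 of the 5 read CAUCG around it. These letters are not particular to PRRC2B. Among the 1038 exonic recurrent sites of other genes, 69.1% had that C, 48.6% had that G and 206 read CAUCG. Of the other cytosines after a U in PRRC2B and PRRC2C, 34.2% had that C.

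The 5 sites of PRRC2C are shown for contrast, with 1 site of PRRC2B that was called in 1 library at a high level.
PRRC2C Q195X, chr1:171517647-171517647, exon 6: ucgucaucugaUCaagaugaaaagc
PRRC2C Q656X, chr1:171535520-171535520, exon 13: gaaucagggucUCaaccucggccgg
PRRC2C S991L, chr1:171540438-171540438, exon 16: auaaaucuaaaUCagaaacucguug
PRRC2C S2038L, chr1:171561099-171561099, exon 20: cagcuccuucaUCagagggagcgaa
PRRC2C 3' UTR, chr1:171592992-171592992, exon 34: accgugcuuuaUCagagcuguuuuu
PRRC2B F1219F, chr9:131475786-131475786, exon 15: acggagaaccuUCgucuccaaagag
In PRRC2C the base after the edited cytosine was A at all 5 sites. Among the PRRC2B sites called in 1 or 2 libraries it was A at 4, G at 4 and C at 1.

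PRRC2A (ENSG00000204469.12) could not be read in these files. The gene lies at chr6:31620720-31637771 in the major histocompatibility complex, and no library listed a site of any kind between positions 28390993 and 33574115 of chromosome 6. That stretch of 5.18 Mb holds 182 coding genes. Elsewhere in the genome, 96 runs of as many coding genes held a median of 93 hA3A-BE3 C-to-U sites and at least 34. The empty stretch takes in PRRC2A and its neighbours alike, so the count of 0 is no measurement of its RNA, and what left the stretch empty was not tested. Its longest coding transcript (ENST00000376033.2, 6893 bases) holds 416 cytosines after a U, the setting in which all 19 C-to-U sites of the other members in hA3A-BE3 cells were found.

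PRRC2B (ENSG00000130723.19, chr9:131373636-131500197, 31 exons in ENST00000357304.8) carried most of the family's C-to-U sites. In hA3A-BE3 cells 6, 10 and 10 sites were called in replicates 1, 2 and 3, a mean of 8.67 ± 2.31 (SD, n = 3). Both PE3 libraries and the controls had 0, apart from non-transfected replicate 2, which had 1. That site was intronic (chr9:131448672-131448672), had 2 edited of 16 covering reads (12.5%, 95% Wilson interval 3.50 to 36.0%) and was called in no hA3A-BE3 library. Every hA3A-BE3 library thus lay above every control library at PRRC2B, as was the case for 21.6% of the 5608 genes with a called site (1209 genes), and this contrast was used to choose the family. Without hA3A-BE3 replicate 1 the number of such genes was 2149.

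PRRC2C (ENSG00000117523.16, chr1:171485551-171593511, 34 exons in ENST00000367742.7) had 0, 2 and 3 C-to-U sites in hA3A-BE3 replicates 1, 2 and 3, a mean of 1.67 ± 1.53 (SD, n = 3). No control or PE3 library listed a C-to-U site in it. Because replicate 1 had none, PRRC2C was not among the genes whose hA3A-BE3 libraries all lay above the controls. The family as a whole had 6, 12 and 13 C-to-U sites, 10.3 ± 3.79 (SD, n = 3). Replicate 1 also had the fewest C-to-U sites over all genes, and per 1000 C-to-U sites of the library the family held 2.40, 2.35 and 2.02.

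The highest mean level in the family was at S2153L of PRRC2B, a serine codon UCG read as UUG for leucine. Edited reads made up 14.2% of 113 covering reads in replicate 1, 38.8% of 85 in replicate 2 and 25.6% of 121 in replicate 3, a mean of 26.2% ± 12.3 (SD, n = 3). The 95% Wilson intervals of replicates 1 (8.91 to 21.8%) and 2 (29.2 to 49.5%) did not overlap. Such intervals cover counting error only, since reads without molecular identifiers are not independent molecules. Among the 1057 recurrent sites of all genes, 84.8% had a lower mean level than S2153L.

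S2206L, the other recurrent serine-to-leucine site, lies close to the end of the 2229-residue protein. Its level was 10.6% of 47 reads, 20.5% of 44 and 14.5% of 62 in replicates 1, 2 and 3, a mean of 15.2% ± 4.94 (SD, n = 3). The 3 Wilson intervals all overlapped, from 4.63 to 22.6% in replicate 1, 11.2 to 34.5% in replicate 2 and 7.83 to 25.3% in replicate 3.

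Both other recurrent coding sites were at the third base of the isoleucine codon AUC and leave the residue unchanged. I1563I was edited in 6.25% of 96 reads, 12.8% of 78 and 25.6% of 117, a mean of 14.9% ± 9.86 (SD, n = 3). Its replicates 1 and 3 differed beyond counting error, with Wilson intervals of 2.90 to 12.97% and 18.6 to 34.2%. I1840I was edited in 7.81% of 64 reads, 8.33% of 48 and 14.5% of 83, a mean of 10.2% ± 3.70 (SD, n = 3), with overlapping intervals. It was the lowest of the recurrent sites, above 26.0% of the recurrent sites of all genes.

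The recurrent 5' UTR site is base 52 of the 55 bases before the start codon, whose AUG stands in the window printed above. It had the most even levels of the 5, at 14.3% of 49 reads, 15.7% of 51 and 16.8% of 95, a mean of 15.6% ± 1.28 (SD, n = 3). At each of the 5 recurrent sites replicate 1 had the lowest level. The same replicate was lowest at 65.3% of the 1057 recurrent sites of all genes, with a median level of 10.7% against 15.5% in replicate 2 and 15.0% in replicate 3.

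**Figure D1:**
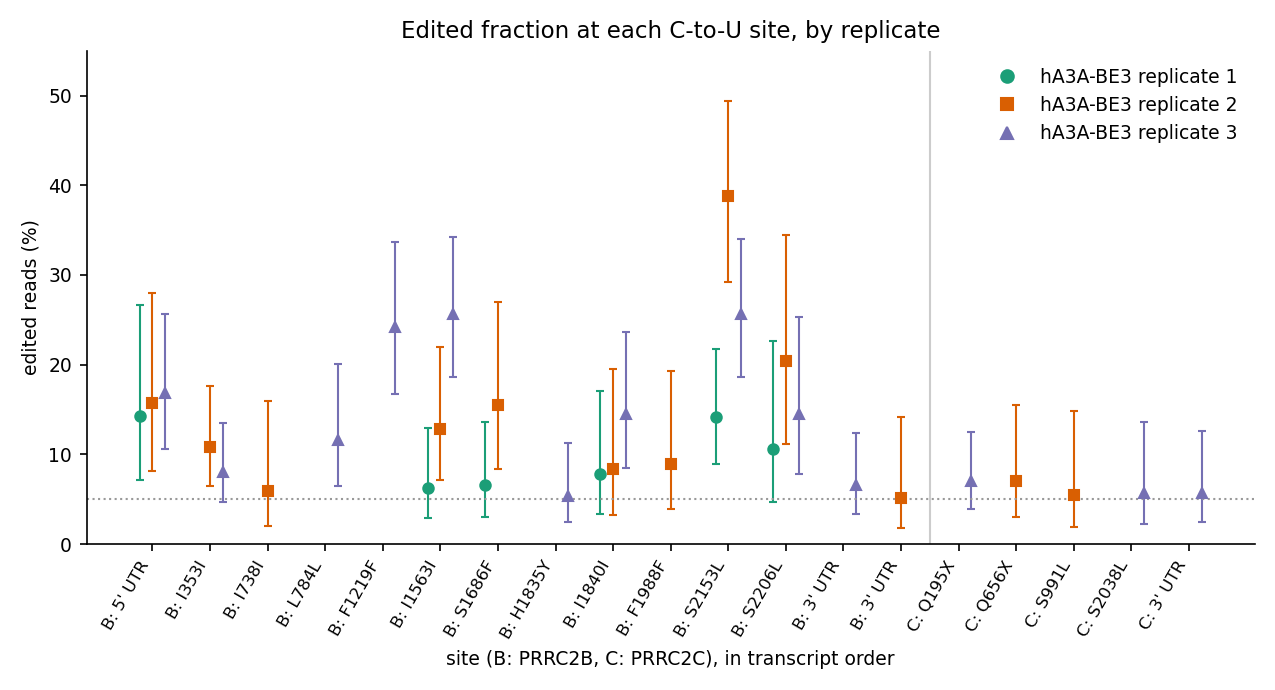
Edited reads (percent of covering reads, vertical axis) at the 19 C-to-U sites of PRRC2B and PRRC2C in hA3A-BE3 cells, in transcript order. Points are replicates in which the site was called, bars are 95% Wilson intervals and the dotted line is at 5%; S2153L reaches 38.8% in replicate 2, and the 5 PRRC2C sites stay between 5.45 and 7.04%.

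The remaining PRRC2B sites were called in 1 or 2 hA3A-BE3 libraries. I353I was called in replicates 2 (10.8% of 120 reads) and 3 (8.0% of 150), and S1686F in replicates 1 (6.59% of 91) and 2 (15.5% of 58). The other 7 were each called in 1 library. All but 1 of those were between 5.17 and 11.6%, namely I738I, L784L, H1835Y, F1988F and 2 sites in the 3' UTR.

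F1219F was the exception among the PRRC2B sites called in 1 library. Replicate 3 had 23 edited of 95 covering reads there, 24.2% with a Wilson interval of 16.7 to 33.7%, while neither other replicate listed the site. Over all genes, 7710 of 10320 C-to-U sites found only in hA3A-BE3 cells were called in 1 library, and 3301 of these had at least 50 covering reads. Only 5 of the 3301 (0.151%) were edited at 20% or more, and F1219F was one of them. At the neighbouring recurrent site I1563I, replicates 1 and 2 had 96 and 78 covering reads, but the depth at F1219F itself in those libraries is not in the lists.

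At PRRC2C all 5 sites were called in 1 library each. Q195X (7.04% of 142 reads in replicate 3) and Q656X (7.04% of 71 reads in replicate 2) turn the glutamine codon CAA into the stop codon UAA. S991L was at 5.45% of 55 reads in replicate 2, S2038L at 5.63% of 71 in replicate 3 and the 3' UTR site at 5.68% of 88 in replicate 3. All are near the 5.02% floor of the lists, and the lower Wilson bounds ran from 1.87 to 3.87%. The covering reads of PRRC2C calls (median 71, 55 to 142) were in the range of those of PRRC2B (median 84, 44 to 150), so at the called sites the 2 members were read at like depth.

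PRRC2B had more sites than most genes of like size. Against the 4613 genes with an hA3A-BE3 C-to-U site and a coding transcript, which had a median of 2 sites and 8.70 sites per 1000 cytosines after a U, PRRC2B had 14 sites over 671 such cytosines, more per cytosine than 87.9% of the genes. The median covering depth was 84 reads over PRRC2B calls and, as the median of the genes' medians, 46 over those genes, and the part of depth in this rank was not tested. For recurrent sites alone, PRRC2B was higher per cytosine than 66.9% of the 873 genes that had one. Only 7 genes had more sites. Of the 236 genes with a like number of such cytosines (from 20% fewer to 25% more), 2 had as many sites or more, and their median was 2. PRRC2C had 5 sites over 624 such cytosines, more per cytosine than 45.8% of the genes, and 71 of its 300 genes of like number had as many or more. These ranks describe members chosen for their sites and are no test.

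Most sites of both members were coding. So were 365 of the 671 cytosines after a U in PRRC2B and 536 of the 624 in PRRC2C. In PRRC2B, 11 of 14 sites were coding, of which 7 were synonymous, 4 missense and 0 stops, and 4 of the 7 synonymous sites were the third base of AUC. One site lay in the 5' UTR and 2 in the 3' UTR, which makes up 4300 of the 11042 bases of the transcript. The 4 recurrent coding sites lay between residues 1563 and 2206. In PRRC2C, 4 of 5 sites were coding, 2 missense and 2 stops, with 0 synonymous. With 5 sites in PRRC2C, each called in 1 library, the difference between the members was not tested.

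All 19 family C-to-U sites in hA3A-BE3 cells followed a U. The base before that U was A at 12 of 19 (63.2%), against 17.7% of the 1276 other cytosines after a U in the transcripts of PRRC2B and PRRC2C and 59.4% of the 1038 exonic recurrent sites of other genes. G followed the cytosine at 9 of 19 (47.4%), all in PRRC2B, against 7.60% of the other cytosines and 48.6% of the recurrent sites of other genes. The sets are unlike, since the family's holds sites called in 1 or 2 libraries too. At the 5 recurrent family sites the shares of A and G were 80.0% and 100%. At the 14 family sites called in 1 or 2 libraries they were 57.1% and 28.6%. A followed the cytosine at 4 of 14 PRRC2B sites and at all 5 PRRC2C sites.

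The motif CAUCG, searched on the transcript strand, stood 10 times in the PRRC2B transcript and 6 of the 10 were called, 4 of them in all 3 libraries. PRRC2C had 3 copies, with 0 called. PRRC2A had 2, which lie in the empty stretch of chromosome 6 and could not be read. Over 4611 other genes with a site, 1005 of 8207 copies (12.2%) were called, against 0.731% of the cytosines after a U outside the motif. Outside the motif PRRC2B had 8 of 661 called (1.21%) and PRRC2C 5 of 621 (0.805%). The motif was read from PRRC2B's own recurrent sites, so these counts describe where the calls lie and no more. A copy of the motif was present in 71.2% of the other genes, and 0.954% had 10 or more. How many of the uncalled copies were covered by reads is not in the lists.

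Minimum free energy folds of 31-base windows placed the edited cytosine in a hairpin loop at 13 of 19 family sites (68.4%). The share was 44.3% for the other cytosines after a U in PRRC2B and PRRC2C, and 87.2% for recurrent sites of other genes. With 51-base windows it was 63.2%, 32.1% and 74.0%. The recurrent family sites alone were in a predicted hairpin loop at 4 of 5 with 31-base windows and 3 of 5 with 51-base windows. The pair of family sites with the highest mean levels, S2153L and F1219F, were predicted as paired in both windows. These folds are predictions from letters alone, and no structure was measured. The sites belong to genes chosen for their sites, so the shares are described without a test.

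Most coding sites had no cytosine after a U at the aligned base of a paralog. PRRC2B and PRRC2C proteins were identical at 39.95% of 2075 aligned residues, PRRC2A and PRRC2B at 37.7% of 1691 and PRRC2A and PRRC2C at 37.96% of 1981. Of the 11 coding sites of PRRC2B, F1988F and S2206L had a cytosine after a U at the aligned base of PRRC2C (residues F2462 and S2796). Neither was called in any library. I353I had one at L307 of PRRC2A, which lies in the empty stretch of chromosome 6. In the other direction, S991L of PRRC2C aligned with S914 of PRRC2B, which also has a cytosine after a U there and was not called. The best conserved, with 15 of 21 residues around it identical, is shown because its letters next to the cytosine are shared.
PRRC2B F1988F, called at 8.93% of 56 reads in replicate 2: ccaggagaucuUCagcuccuugcag
PRRC2C F2462, not called: ucaggaauuguUCagcuccucacuu
The call in PRRC2B was made in a single library, so the pair shows no difference between the genes beyond the lists' limits.

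A-to-I sites, the kind of change that the cell's own ADAR deaminases make, were few in the family and were not used to choose it. Whether the calls here came from ADAR was not tested. In all, 4 were called, all intronic and each in 1 library. PRRC2B had 1 in hA3A-BE3 replicate 2 (13.3% of 15 reads), 1 in hA3A-BE3 replicate 3 (15.0% of 20) and 1 in EGFP replicate 1 (13.3% of 15). PRRC2C had 1 in EGFP replicate 2, with 7 edited of 14 reads (50%, Wilson interval 26.8 to 73.2%). As log2(sites + 1), hA3A-BE3 libraries (0, 1 and 1 site) were 0.44 above controls (0 or 1). The difference did not pass the test (two-sided exact permutation p = 0.491, Benjamini-Hochberg adjusted p = 1 over 3 tests). The smallest exact permutation p of 3 against 9 is 0.00455 where values are not tied, and these tied counts could not reach it.

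PE3 libraries listed no family site of any kind. On the same scale they differed from the controls by -0.22 for A-to-I sites and by -0.11 for C-to-U sites (two-sided exact permutation p = 1 and p = 1, adjusted p = 1 for both). The smallest exact permutation p of 2 against 9 is 0.0182 where values are not tied. For C-to-U sites only 1 of these libraries was above 0, so ties put that floor out of reach and the test could not pass. With 2 libraries, one of them the shallowest of the series at 3.26 Gb, and controls that mostly held 0 themselves, these data could not show a small change. One T-to-C site, L1792S of PRRC2C, was listed in EGFP replicate 3 at 5.33% of 75 reads.

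Genes were also described from 3 lists for processes in which the family has been described. The lists were chosen, like the family, with earlier results of these data known. Whether each listed gene works with the family was not tested. Of 33 translation initiation factors, 20 had a called site and 8 of those (40.0%) had more C-to-U sites in every hA3A-BE3 library than in every control. Over all 5608 genes the share was 21.6%. In the other direction there were 0 genes, both in the list and among all 5608. EIF3B and EIF3L, subunits of eIF3, had 2 recurrent sites each with mean levels of 12.6% ± 3.16 and 11.4% ± 2.63 (SD, n = 3). DENR, which acts in ribosome recycling and reinitiation, had 2 at 8.71% ± 1.92 (SD, n = 3). Median covering reads over the hA3A-BE3 C-to-U calls were 196.5 in EIF3B, 318 in EIF3L and 69 in DENR. The median of such medians was 46 over the 4613 genes with a site and a coding transcript. The part of depth in the list's share was not tested. The median over those 20 genes was 1 distinct hA3A-BE3 site per gene, as it was over all 5608 genes.

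Of 26 stress granule and mRNA-binding partners, 22 had a called site and 6 (27.3%) lay above the controls in every hA3A-BE3 library. The share over all 5608 genes was 21.6%. This list had 0 genes in the other direction, as did all genes, and a median of 2 sites. USP10, a deubiquitinase that binds G3BP proteins, had 1 recurrent site at 24.7% ± 7.45 (SD, n = 3). FAM120A, an RNA-binding protein that was not among the 6, since hA3A-BE3 replicate 1 and a control library held 1 C-to-U site each in it, had 1 recurrent site at 17.2% ± 10.2 and G3BP2, a core stress granule protein, 1 at 14.6% ± 4.17 (SD, n = 3 each). Of 10 m6A readers, 8 had a called site and 3 (37.5%) lay above the controls, beside the same 21.6% of all genes. There were 0 in the other direction, and the median was 1 site. With so few genes, the shares of these lists were not tested against that of all genes. IGF2BP1 and YTHDC2 had 2 recurrent sites each, at 11.98% ± 4.50 and 7.40% ± 1.55, and YTHDF3 had 1 at 9.60% ± 1.02 (SD, n = 3 each).

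The genes whose numbers of C-to-U sites over the 14 libraries were nearest to those of PRRC2B, by Euclidean distance of log2(sites + 1), were SESN2 (distance 1.01, with 6, 9 and 10 sites in hA3A-BE3 replicates 1, 2 and 3), GCN1 (1.03, with 7, 9 and 10) and DNAJB1 (1.07, with 5, 8 and 9). SESN2 is a leucine-binding regulator of mTORC1, GCN1 an activator of the kinase GCN2 and DNAJB1 an Hsp40 co-chaperone. None of the 3 had a C-to-U site in a control library. PRRC2B had 1, in non-transfected replicate 2, and that site makes up most of each distance. The pattern of PRRC2C was shared exactly by 22 genes, among them ANXA6, PPP4R3A and WDR5, as small counts allow.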

How the data were processed

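Each library came as a deposited list of called RNA sites. Its deposited counts are reads covering a site, reads with each base and mutated reads. The deposited fraction columns give the share of covering reads with a base and the edited fraction, printed here as percent. A deposited signal column is depth divided by a constant per library, read here (an inference) as Gb of mapped bases. The submitters' processing notes list BWA 0.7.17 and, as builds, GRCh38 and hg38. The caller, its filters and its strand rule were not given in the sources used here. Per the labels' protocols, libraries were stranded, depleted of ribosomal and globin RNA and read as pairs of 150 bases.

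The strand was recovered from the edited fraction. Sites were annotated with GENCODE 29 and the longest coding transcript of each gene, with Python 3.11.15 and pandas 2.3.3. Folds used RNAfold 2.7.2 and protein alignments of translated transcripts mafft 7.526. Wilson intervals (95%) were computed from reads. Distinct sites are positions with their strand. Number tests were two-sided exact permutation tests on log2(sites + 1) over all assignments of libraries (220 for 3 against 9, 55 for 2 against 9), checked on simulated data, with Benjamini-Hochberg adjustment. The planned tests of A-to-I level and covering reads could not be run, since 0 A-to-I family sites were called in all 14 libraries. Members and lists were chosen with earlier results of these data known. Named with full values were the members, their recurrent sites, the highest site of each member among the others, member C-to-U sites of other groups, up to 3 genes per list by recurrent sites and the 3 genes nearest to each member. The remaining PRRC2C sites, F1988F, and the A-to-I and T-to-C sites were added after their values were seen. Alternatives were stricter read, level and mutated-read limits, other scales, a block for replicate number and leaving each library out.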

Additional observations from a re-analysis of the deposited data

Results flagged for a closer look

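Non-transfected replicate 2 stood apart from the other 8 control libraries with 1 C-to-U site in the family, where they had 0. EGFP replicate 3 stood apart in the same way with 1 T-to-C site. In both cases the gap to the nearest library was the whole range (ratio 1, critical value 0.493 for 9 libraries). The usual chance rate of about 1 in 20 groups does not hold for such counts. Where all other libraries have 0, a single site always gives a ratio of 1 and is flagged.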

How the results depend on the processing

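With at least 5 mutated reads the A-to-I difference of hA3A-BE3 cells turned from 0.44 to -0.11 (exact permutation p = 1), since only the PRRC2C site in EGFP replicate 2 has that many. Its exact p ran from 0.109 to 1 over 18 alternatives, and leaving out 1 library each gave 0.28 to 0.78. The replicate block gave 0.44 (exact permutation p = 0.531) for it and -0.17 for both PE3 comparisons (exact permutation p = 1). The titles number replicates without naming a shared culture, and at 138 A-to-I sites same-numbered libraries of different groups did not deviate together (median r = 0.017 over 26 pairs, 3 above 0.1). No other test changed direction or call, with 17 alternatives each for the PE3 comparisons.

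An edited fraction of at least 10% lowered the mean number of family C-to-U sites in hA3A-BE3 cells from 10.3 to 5.33 and the recurrent sites of PRRC2B from 5 to 3. At least 50 covering reads lowered the recurrent sites to 2. Per 1000 C-to-U sites of the library the family mean was 2.25. Leaving out 1 hA3A-BE3 library gave means of 9 to 12.5 and 5 to 6 recurrent sites. Genes with every hA3A-BE3 library above every control numbered 1210 to 2149 when 1 library was left out, with 2149 without hA3A-BE3 replicate 1. Depth limits every list: below 5.02% no call exists, and absence is not a level.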
